A study of Homo sapiens with 12 samples.

Results

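The genes described here are CREB3, CREB3L1, CREB3L2 and CREB3L4, which belong to the CREB3 family of membrane-bound transcription factors, and MBTPS1 and MBTPS2, which code for the Golgi proteases that cut them. These 6 genes are among 19775 genes with a probe set of their own on the arrays, and all 6 were among the 10650 genes that passed the filter on low values (above 4 on the log2 scale on at least 3 of the 12 arrays). Where a gene had several probe sets, the one that averaged highest across the arrays stands for it. CREB3L2 was chosen by its measured values, for its rise under CsA at 12 h, so its values in that comparison are a description and carry no test. The others were chosen as its relatives and proteases. The groups were HK-2 cells exposed to CsA for 12 h, their controls at 12 h, HK-2 cells exposed to CsA for 48 h and their controls at 48 h, with 3 biological replicates, each on 1 array, in every group. Controls received the vehicle, whose identity, like the dose of CsA, is not in the labels. CsA usually stands for cyclosporine A, a calcineurin inhibitor given against transplant rejection and known for its kidney toxicity. HK-2 is a single immortalised line from human proximal tubule. Both arms shared a medium supplemented with EGF, hydrocortisone, insulin, transferrin and selenite and were treated close to confluence.

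Factors of the CREB3 family are made as precursors that span the membrane of the endoplasmic reticulum (ER), with a basic leucine zipper (bZIP) domain on the cytosolic side. Under some kinds of stress, or when secretory load is high, they move to the Golgi, where the site-1 protease (MBTPS1) cuts on the lumenal side and the site-2 protease (MBTPS2) then cuts within the membrane. The freed fragment enters the nucleus and switches on genes, many of which serve transport out of the ER. The same proteases cut ATF6, a sensor of unfolded proteins, and the SREBP factors of sterol synthesis. Arrays measure the mRNA and not the cleavage.

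The 12 arrays had medians of 2.85 to 2.96 (log2). Replicates scattered more at 48 h: the standard deviation (SD) over 3 arrays had a median over genes of 0.29 for CsA 48 h and 0.21 for its control, against 0.12 for both groups at 12 h. At each time, the CsA and control arrays of 1 replicate number shared their deviations from the group mean, with correlations across genes of 0.36 to 0.59 at 12 h and 0.54 to 0.78 at 48 h. Same-numbered arrays are therefore called pairs, and a fit with the pairs as a block is given beside the fit without it where it matters. Both fits estimate 1 spread per gene from all 12 arrays, so the SEs and intervals at 12 h also carry the scatter at 48 h, and the reverse. The replicates are labelled biological, and nothing says whether they came from separate cultures. Of 10 markers of proximal tubule cells only DPP4 passed the filter, while LRP2, CUBN, SLC34A1, SLC5A2, SLC22A6, AQP1, ANPEP, GGT1 and MME did not. Of 8 general markers of renal epithelium 6 passed, among them PAX8, KRT8, KRT18 and CDH2. Among markers of other kidney cells and of non-epithelial cells, AQP2 and PECAM1 passed, each with group means under 5, and the other 7 that could be looked up did not. In bulk samples such as these, fewer cells of a type and less RNA per cell cannot be told apart.

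The promoter of CREB3L2 is shown because of the 6 genes this one had the largest mean difference between CsA and control at 12 h. RefSeq gives it 2 start sites on the minus strand of chromosome 7 (GRCh38.p14), and the windows below run from 250 bases before a start to 50 after it. Capitals mark matches on either strand to CRE (TGACGTCA), UPRE (TGACGTGG), the ER stress elements ERSE and ERSE-II (named only), a C/EBP-ATF element (TGATGNAA) or the CCAAT box (CCAAT), which is part of ERSE and ERSE-II. The window of CREB3, with no match, is shown for contrast.

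CREB3L2, upstream start, chr7:138002037-138002336: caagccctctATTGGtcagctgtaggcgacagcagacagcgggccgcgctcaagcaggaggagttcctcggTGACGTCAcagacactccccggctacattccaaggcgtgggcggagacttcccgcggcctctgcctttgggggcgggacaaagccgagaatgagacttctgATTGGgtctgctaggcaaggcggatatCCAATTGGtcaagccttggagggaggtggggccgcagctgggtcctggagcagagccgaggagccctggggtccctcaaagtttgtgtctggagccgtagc

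CREB3L2, downstream start, chr7:137932939-137933238: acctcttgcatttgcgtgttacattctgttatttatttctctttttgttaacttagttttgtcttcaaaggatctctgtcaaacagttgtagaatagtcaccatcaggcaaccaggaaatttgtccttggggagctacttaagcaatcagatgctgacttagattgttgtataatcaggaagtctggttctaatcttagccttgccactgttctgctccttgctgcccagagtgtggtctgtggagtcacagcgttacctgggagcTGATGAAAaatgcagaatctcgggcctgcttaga

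CREB3, chr9:35732416-35732715 (plus strand): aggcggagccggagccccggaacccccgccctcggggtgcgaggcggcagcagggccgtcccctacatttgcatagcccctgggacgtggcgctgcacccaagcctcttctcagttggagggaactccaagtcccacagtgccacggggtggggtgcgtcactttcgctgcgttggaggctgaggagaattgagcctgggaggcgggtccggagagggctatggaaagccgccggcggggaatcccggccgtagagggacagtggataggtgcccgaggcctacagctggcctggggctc

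The window of the upstream CREB3L2 start holds 1 CRE, the palindrome bound by factors of the CREB and ATF families, at bases -179 to -172 from the start. Of 35116 RefSeq windows of this length 1.85% hold a CRE. The same window holds 4 CCAAT boxes, at bases -240 to -236, -78 to -74, -51 to -47 and -48 to -44, of which the last overlaps the one before it. A CCAAT box is in 34.6% of windows. The window of the downstream start holds 1 C/EBP-ATF element, the kind of site bound by ATF4 dimers, at bases 17 to 24, and 3.62% of windows hold one. Neither window holds a UPRE, an ERSE or an ERSE-II, which are in 0.729%, 0.0769% and 0.0541% of windows. Of the 8 windows of the 6 genes and of CREB3L3, the remaining family member, 5 held none of the 6 motifs. A match describes the letters of a window and does not show a site in use, and the arrays do not say which start was used.

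CREB3L2 codes for a family member, also called BBF2H7, that drives genes of the COPII coat, the vesicle coat for export from the ER, in mouse cartilage cells. Its probe set 212345_s_at read 9.06, 8.92 and 8.96 (log2) on the arrays of CsA 12 h, against 7.72, 7.45 and 7.43 on those of control 12 h. The groups did not overlap, and the lowest CsA array stood above the highest control array. The differences within pairs were 1.35, 1.47 and 1.52, with a mean of 1.45, or 2.72-fold, and an SD of the pair differences of 0.09. Groups that did not overlap, with CsA higher, were found for 5.4% of tested genes, and nothing is read from this for CREB3L2, since the choice of the gene rests on this comparison. The same holds for its being higher in each of the 6 pairs of both times, as 2.78% of tested genes were.

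**Figure D1:**
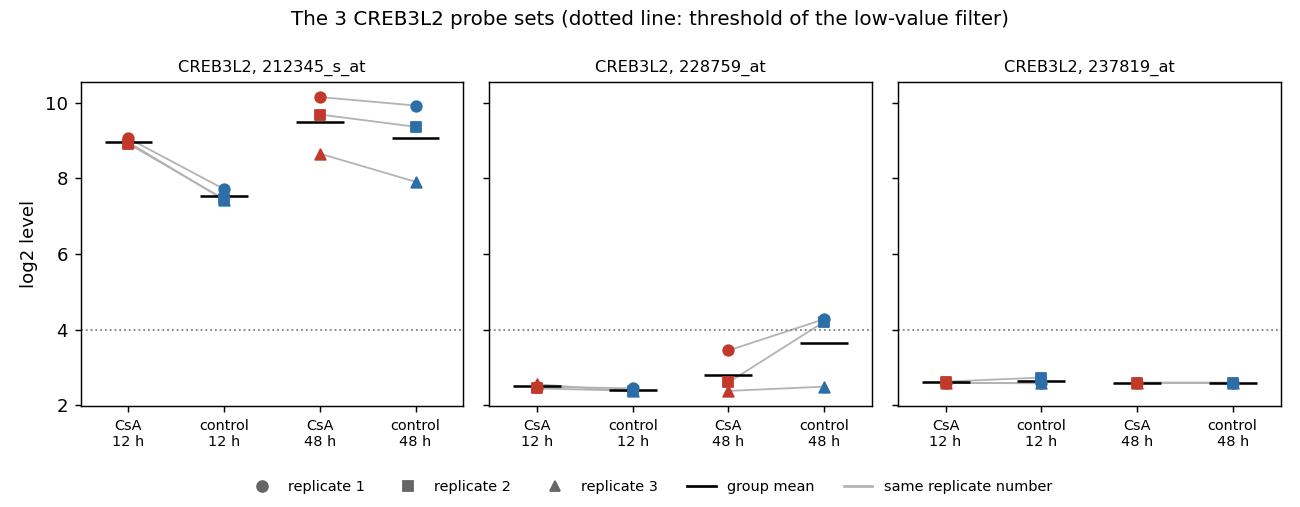
Levels (log2, vertical axis) of the 3 CREB3L2 probe sets in CsA and control cells at 12 h and 48 h, with 1 point per array, grey lines joining arrays of the same replicate number and black bars for group means. In 212345_s_at CsA stands above control in each pair, while 228759_at passes 4 only on 2 control arrays at 48 h and 237819_at lies under 4 on every array.

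The other CREB3L2 probe sets did not carry this difference. Probe set 228759_at read 2.49, 2.44 and 2.55 in CsA 12 h and 2.44, 2.38 and 2.36 in control 12 h, all below the filter. At 48 h it read 3.45, 2.60 and 2.38 under CsA, against 4.27, 4.20 and 2.49 in control, so CsA was lower in 3 of 3 pairs, opposite in sign to 212345_s_at. Probe set 237819_at stayed between 2.58 and 2.73 on the 12 arrays. When the 3 probe sets were averaged, the difference at 12 h was 0.51 in place of 1.45, and that at 48 h was -0.14 in place of 0.43. Which part of the transcript each probe set reads is not given in the sources used here.

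At 48 h, in arrays that the choice of CREB3L2 did not use, 212345_s_at read 10.16, 9.69 and 8.66 in CsA, against 9.93, 9.37 and 7.91 in control. The groups overlapped, and replicate 3 was lower than the other two in both arms. Within pairs CsA was higher in 3 of 3, by 0.22, 0.33 and 0.75. The mean difference was 0.43 (1.35-fold, standard error (SE) 0.47, 95% interval -0.62 to 1.48, limma without the block, adjusted p = 0.999). With the pairs as a block the SE was 0.11, the 95% interval 0.17 to 0.70 and the unadjusted p 0.0062, but the adjusted p over all genes was 0.36, so the gene was not called in either fit. Both fits estimate the spread from all 12 arrays, so these SEs, intervals and p-values also draw on the 12 h arrays by which the gene was chosen. The SD of its pair differences was 0.28 at 48 h, against 0.09 at 12 h. At 48 h limma called 0% of the 10650 genes in both fits, while 263 of them without the block and 1308 with it had an unadjusted p under 0.05. CsA was higher in 3 of 3 pairs for 13.3% of tested genes. The largest pair difference was in pair 3, and without that pair the blocked value was 0.28. Without the control 48 h array of replicate 3 alone, the unpaired value turned to -0.15.

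The order of the group means of CREB3L2 was CsA 48 h at 9.50 ± 0.77, control 48 h at 9.07 ± 1.04, CsA 12 h at 8.98 ± 0.07 and control 12 h at 7.53 ± 0.16 (log2, SD, n = 3 each). The arrays of CsA 48 h, control 48 h and CsA 12 h overlapped each other. Control 12 h lay below each of the other groups with no overlap. In controls the level at 48 h was thus higher than at 12 h, by 1.54, with the lowest 48 h array (7.91) just above the highest 12 h array (7.72). That difference is not tested because the 12 h controls entered the choice of the gene. The control at 48 h was above control at 12 h without overlap in 25% of tested genes and below it in 24.9%. The effect of CsA at 48 h minus that at 12 h was -1.01, also a description.

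**Figure D2:**
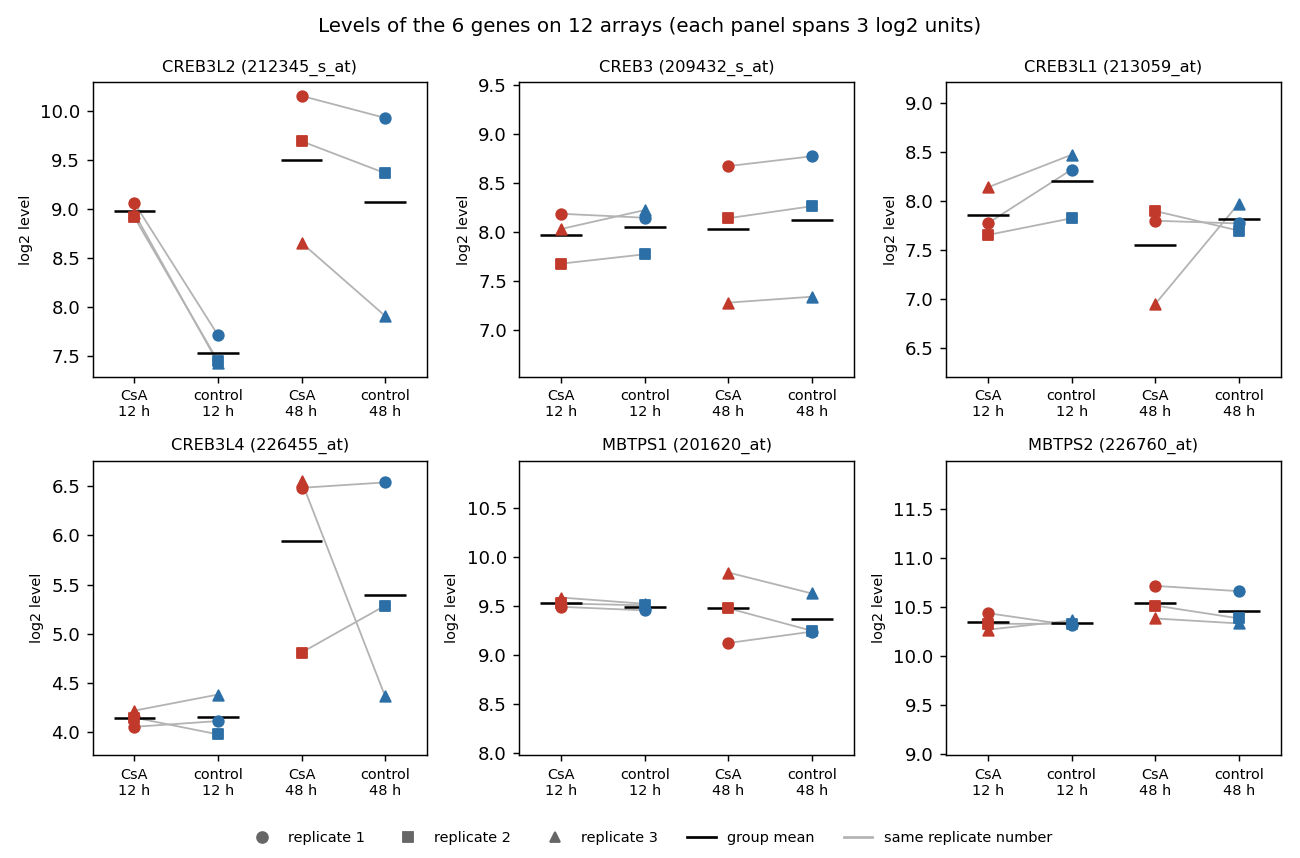
Levels (log2, vertical axis, 3 units in each panel) of the 6 genes in CsA and control cells at 12 h and 48 h, with 1 point per array, grey lines joining arrays of the same replicate number and black bars for group means. CREB3L2, chosen for its rise at 12 h, alone shows separated groups at 12 h. At 48 h replicate 3 is lowest in both arms for CREB3L2 and CREB3 and highest in both arms for MBTPS1.

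CREB3, also called LZIP or Luman, is the founding member of the family. It read 8.19, 7.68 and 8.03 in CsA 12 h, against 8.15, 7.78 and 8.23 in control 12 h. At 48 h it read 8.68, 8.14 and 7.28 in CsA, against 8.78, 8.27 and 7.34 in control. Replicates at 48 h thus spanned 1.39 under CsA and 1.43 in control, while the differences within pairs were only -0.10, -0.12 and -0.06. The mean difference was -0.08 at 12 h and -0.09 at 48 h (SE 0.39 each without the block, adjusted p = 1 and 0.999, and SE 0.075 each with it, adjusted p = 0.89 and 0.62). The blocked 95% intervals were -0.26 to 0.10 at 12 h and -0.27 to 0.08 at 48 h. At 48 h CsA was lower in 3 of 3 pairs, as in 16.2% of tested genes.

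CREB3L1, also called OASIS, activates the collagen gene COL1A1 in mouse bone-forming cells. It read 7.78, 7.66 and 8.14 in CsA 12 h, against 8.32, 7.83 and 8.47 in control 12 h, and was lower under CsA in 3 of 3 pairs, by 0.55, 0.17 and 0.33. The groups overlapped, and the mean difference of -0.35 did not pass (SE 0.26, adjusted p = 1 in limma without the block, 0.82 with it). CsA was lower in 3 of 3 pairs for 22.3% of tested genes at 12 h. At 48 h it read 7.80, 7.90 and 6.95 in CsA, against 7.77, 7.70 and 7.98 in control. The pair differences were 0.03, 0.20 and -1.03, with a mean of -0.27 (SE 0.26, adjusted p = 0.999), and the blocked value without pair 3 was 0.11. COL1A1 itself read lower under CsA, by 0.30 at 12 h (SE 0.12, adjusted p = 1) and 0.25 at 48 h (SE 0.12, adjusted p = 0.999), and was not called. Its groups did not overlap at 12 h, as in 6.52% of tested genes with CsA lower. It was named for its role after its values were seen, and a link to CREB3L1 was not tested. A second CREB3L1 probe set, 213498_at, lay between 2.11 and 2.23 on every array.

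CREB3L4, also called AIbZIP and best known from prostate epithelium, stood at the filter at 12 h. It read 4.05, 4.14 and 4.21 in CsA 12 h, against 4.11, 3.97 and 4.38 in control 12 h, with 1 control array under 4. At 48 h it read 6.49, 4.81 and 6.55 in CsA, against 6.54, 5.28 and 4.36 in control. The 3 CsA arrays at 48 h lay above each CsA array at 12 h, while among controls the 48 h array of replicate 3 lay within the 12 h range. In controls the difference between 48 h and 12 h was 1.24 (SE 0.54, 95% interval 0.05 to 2.44, adjusted p = 0.11 in limma), not called. Without the control 48 h array of replicate 3, which lay within the 12 h range, it was 1.76 and passed (adjusted p = 0.031, range 0.031 to 0.36 over the alternatives). In that setting limma called 30.1% of tested genes. The CsA difference at 48 h was -0.06, -0.48 and 2.19 in the 3 pairs. Its mean of 0.55 (SE 0.54, adjusted p = 0.999 without the block, 0.63 with it) turned to -0.27 in the blocked fit without pair 3. CREB3L3, the liver and gut member of the family, which was no member of the chosen set, lay between 2.59 and 2.72 on every array.

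**Figure D3:**
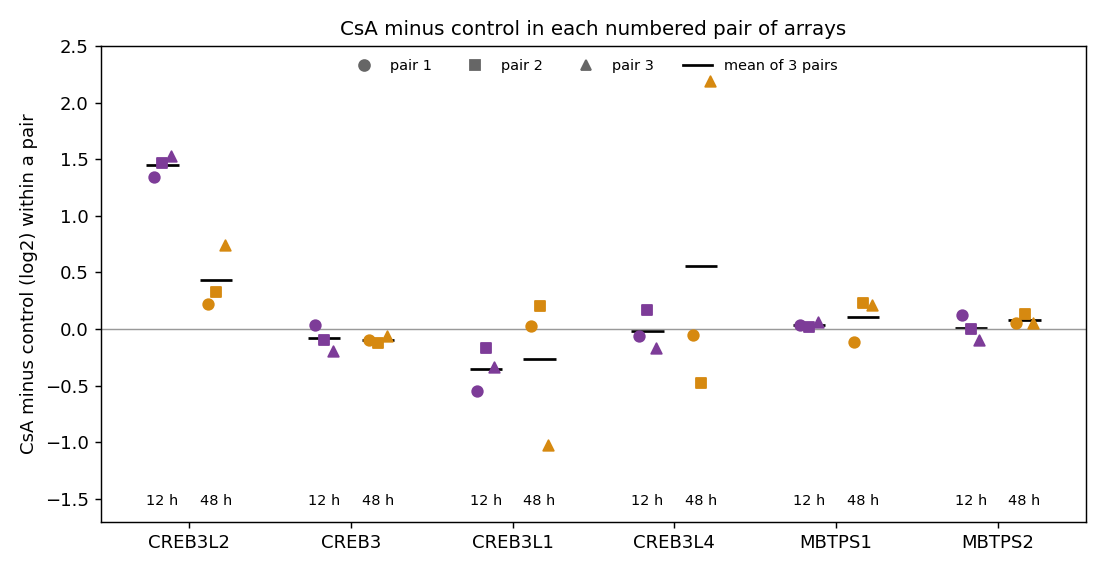
CsA minus control (log2, vertical axis) within each numbered pair of arrays for the 6 genes at 12 h (purple) and 48 h (orange), with black bars for the mean of 3 pairs. CREB3L2, chosen for its rise at 12 h, lies above 0 in 6 of 6 pairs. The pairs of the proteases and CREB3 lie between -0.19 and 0.23, and at 48 h pair 3 stands apart for CREB3L1 (-1.03) and CREB3L4 (2.19).

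MBTPS1, the site-1 protease, is a serine protease related to the proprotein convertases. It read 9.49, 9.53 and 9.59 in CsA 12 h, against 9.46, 9.51 and 9.53 in control 12 h, a difference of 0.04, 0.02 and 0.06 in the pairs. This was 3 of 3 pairs higher, as in 18.9% of tested genes, at a mean of 0.04 (95% interval -0.34 to 0.42 without the block and -0.17 to 0.25 with it, adjusted p = 1 and 0.98). Both intervals include the wider scatter at 48 h. The SD over 3 arrays was 0.05 in CsA and 0.03 in control at 12 h, against 0.36 and 0.22 at 48 h. At 48 h it read 9.13, 9.48 and 9.84 in CsA, against 9.24, 9.25 and 9.63 in control, a mean difference of 0.11 (SE 0.17, adjusted p = 0.999). Its second probe set, 217543_s_at, differed by -0.03 at 12 h and 0.07 at 48 h on average, with pairs on both sides of 0 at each time.

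MBTPS2, the site-2 protease, is a zinc metalloprotease that cuts within the membrane. It read 10.43, 10.33 and 10.27 in CsA 12 h, against 10.31, 10.33 and 10.36 in control 12 h, a mean difference of 0.01 (95% interval -0.25 to 0.27 without the block, adjusted p = 1). At 48 h it read 10.71, 10.51 and 10.38 in CsA, against 10.66, 10.38 and 10.33 in control. CsA was higher in 3 of 3 pairs, by 0.05, 0.13 and 0.05, at a mean of 0.08 (SE 0.12, adjusted p = 0.999 without the block, SE 0.075 and 0.68 with it). Probe set 206473_at differed by 0.09 at 12 h and 0.10 at 48 h with pairs on both sides of 0. Probe set 1554604_at lay under 3 on every array. Over the 6 genes and CREB3L3 together, 1 further probe set is shared with another gene and was not used.

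Of the 5 genes other than CREB3L2, 0 were called at 12 h without the block, where limma called 0% of tested genes and 138 had an unadjusted p under 0.05. With the block, where it called 0.0282% of tested genes, again 0 of the 5 were called. At 48 h 0 of 6 were called in either fit. At 12 h the arrays of CsA and control overlapped for each of the 5, where 5.4% of tested genes were higher and 6.52% lower without overlap. At 48 h they overlapped for each of the 6, against 1.97% and 2.48%. The CsA effect at 48 h minus that at 12 h ran from -0.01 for CREB3 to 0.57 for CREB3L4 among the 5, with an adjusted p of 0.9999 for each in limma without the block, which called 0% of tested genes. In controls at 48 h against 12 h limma called 25.8% of tested genes, 12.4% higher and 13.5% lower. This comparison shares its arrays with both CsA comparisons. Of the 5 genes 0 were called, with differences of 1.24 for CREB3L4, 0.12 for MBTPS2, 0.08 for CREB3, -0.12 for MBTPS1 and -0.39 for CREB3L1.

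At 48 h the means of the pairs spread more widely than at 12 h in 5 of the 6 genes. The mean of the 2 arms of a CREB3L2 pair ran from 8.29 in pair 3 to 10.04 in pair 1, a range of 1.76, against 0.20 at 12 h. For CREB3 the range was 1.41 at 48 h and 0.44 at 12 h, again with pair 3 lowest and pair 1 highest. MBTPS2 had the same order with a range of 0.33. MBTPS1 ran the other way, with pair 1 lowest and pair 3 highest and a range of 0.55. CREB3L4 had a range of 1.47 at 48 h and 0.24 at 12 h, with pair 2 lowest, and its difference of 2.19 within pair 3 was larger than that range. CREB3L1 was the exception, with a range of 0.34 at 48 h and 0.57 at 12 h, and its difference of -1.03 within pair 3 was also larger in size than the range at 48 h. After group means were taken out, the correlation with CREB3L2 over the 12 arrays was 0.94 for CREB3, 0.81 for MBTPS2 and -0.90 for MBTPS1. Over the 6 arrays at 12 h alone these were 0.46, 0.13 and -0.73, and over the 6 at 48 h 0.99, 0.86 and -0.90. CREB3L1 and CREB3L4 reached 0.28 and 0.45 over 12 arrays. These correlations are descriptions of arrays that share a normalization and, within a pair, a replicate number.

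The genes most like CREB3L2 over the 12 arrays were TMED10, a cargo receptor of the early secretory pathway (Pearson r = 0.97), DNAJC10, an ER disulfide reductase (0.96), P4HB, a protein disulfide isomerase (0.94), LZTFL1, a regulator of ciliary traffic (0.94), and CANX, the lectin chaperone calnexin (0.93). Their CsA differences at 12 h were 0.36, 0.51, 0.25, 0.58 and 0.30, each smaller than that of CREB3L2, and at 48 h 0.23, 0.16, 0.20, 0.27 and 0.13. With group means taken out, the leading genes were DNAJC3 (0.99), an ER co-chaperone, TSPYL2 (0.99), FBXO25 (0.99), LZTFL1 (0.99) and TMED10 (0.98). These lists were ranked over the tested genes and describe these 12 arrays. That the genes share the direction of CREB3L2 follows from the ranking on the same arrays and was not tested.

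**Figure D4:**
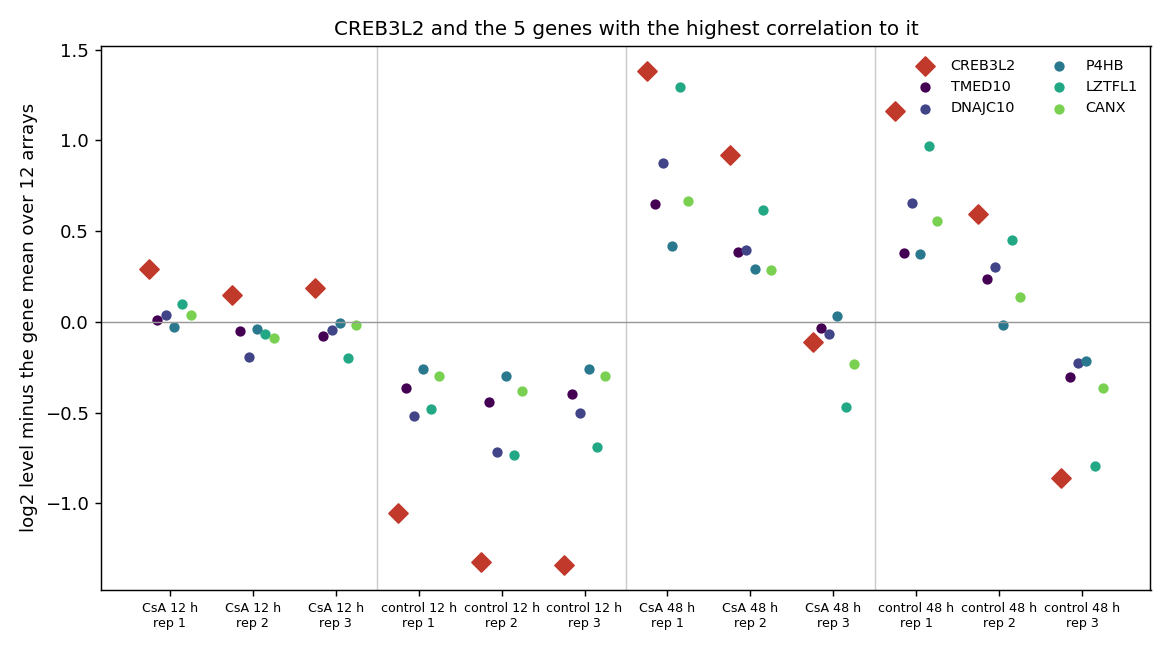
Level minus the gene's own mean over 12 arrays (log2, vertical axis) for CREB3L2 (red diamonds) and TMED10, DNAJC10, P4HB, LZTFL1 and CANX on each array (horizontal axis, in groups). Each of the 6 genes is lower in control 12 h than in CsA 12 h, and lower on replicate 3 than on replicate 1 in both arms at 48 h.

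Other substrates and partners of the site proteases, together with genes of ER degradation, were followed as a list of 11 genes, of which 9 were tested. ATF6 is also counted in the list of bZIP factors below. This list and those below were chosen with earlier results of these data known, so their counts beside the shares of tested genes are descriptions. At 12 h 6 stood above 0 and 3 below, with a median of 0.16, against a median of -0.01 and 45.5% above 0 over the tested genes, and 0 were called. SEL1L, a subunit of the ER degradation complex, read higher under CsA in 3 of 3 pairs, by 0.63, 0.48 and 0.35 (mean 0.48, SE 0.65, adjusted p = 1). In limma with the block its SE was 0.095, the 95% interval 0.26 to 0.71 and the adjusted p 0.35, not called. INSIG1, which holds SREBP factors in the ER, differed by 0.33 (SE 0.22 without the block, 0.080 with it). ATF6 differed by -0.01 (SE 0.23). At 48 h 3 of 9 stood above 0, against 45.4% of tested genes, with a median of -0.10 and 0 called. SREBF1, one of the SREBP genes, read 8.07, 8.42 and 8.06 in CsA, against 7.68, 7.82 and 7.78 in control, groups that did not overlap, as in 1.97% of tested genes with CsA higher (difference 0.42, SE 0.15, adjusted p = 0.999, 0.34 with the block). The list median at 48 h turned to 0.15 without the CsA 48 h array of replicate 3 and to 0.08 without the control array of replicate 1.

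ER export and secretory genes formed a list of 18, some of them reported targets of CREB3 family factors, of which 16 were tested. At 12 h 12 stood above 0 and 4 below, against 45.5% of tested genes above 0, with a median of 0.10 and 0 called. Of the 16, 6 were higher and 1 lower under CsA with no overlap between groups, against 5.4% and 6.52% of tested genes. HERPUD1, which takes part in ER-associated degradation, read 11.55, 10.98 and 11.21 in CsA, against 10.52, 9.71 and 10.20 in control (difference 1.10, SE 0.78, adjusted p = 1). In limma with the block its SE was 0.26, the 95% interval 0.48 to 1.72 and the adjusted p 0.47, not called. SEC24D, the cargo adaptor of COPII, read higher by 0.89, 0.74 and 0.52 in the pairs, and SEC23A, its coat partner, by 0.16 on average (SE 0.12). ARF4, a small GTPase reported as a CREB3 target, differed by 0.02 (SE 0.19). At 48 h 5 of 16 stood above 0, against 45.4% of tested genes, with a median of -0.07 and 0 called, and this median was 0.22 without the CsA array of replicate 3, 0.11 without the control array of replicate 1, -0.26 without the CsA array of replicate 1 and -0.22 without the control array of replicate 3. Of 5 proprotein convertases, FURIN and PCSK7 were tested and differed by -0.11 and -0.15 at 12 h.

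The other bZIP factors of ER stress, 9 genes of which 9 were tested, mostly read higher under CsA at 12 h and lower at 48 h. At 12 h 7 stood above 0, against 45.5% of tested genes, with a median of 0.53 and 0 called. In 3 of 3 pairs 7 were higher and 1 lower, against 18.9% and 22.3% of tested genes. The list was chosen with earlier results of these data known, so these counts are a description. ATF3, a stress-induced repressor, differed by 1.04, 1.25 and 0.68 in the pairs, and DDIT3, which codes for CHOP, by 0.97, 0.61 and 0.53. ATF4 differed by 0.78, 0.61 and 0.65, and XBP1, the spliced factor of the unfolded protein response, by 0.56, 0.85 and 0.62. At 48 h 1 of 9 stood above 0, against 45.4% of tested genes, with a median of -0.22 and 0 called. In 3 of 3 pairs 0 were higher and 4 lower, against 13.3% and 16.2% of tested genes. In pair 3 at 48 h ATF3 differed by -3.61, DDIT3 by -2.86 and XBP1 by -0.90, while CREB3L2 differed by 0.75 on the same arrays. Without the CsA 48 h array of replicate 3, 7 of 9 stood above 0 and the median was 0.15. Without the CsA arrays of replicate 1 or 2 or the control array of replicate 3 the median was -0.52, -0.56 and -0.62.

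In controls, 48 h against 12 h, 7 of the 9 factors were higher and 1 lower past the limma threshold without a block, where 12.4% of tested genes were called higher and 13.5% lower. ATF3 read 11.87 ± 0.29 at 48 h and 6.51 ± 0.82 at 12 h (log2, SD, n = 3, adjusted p = 0.0026). DDIT3 read 13.25 ± 0.66 and 8.44 ± 0.14 (adjusted p = 0.0046), and XBP1 read 11.59 ± 0.36 and 9.60 ± 0.21 (adjusted p = 0.0027). ATF4 rose by 1.14 (adjusted p = 0.012), CEBPB by 1.60 (adjusted p = 0.012) and NFE2L1 by 0.85 (adjusted p = 0.048). ATF5 fell by 0.94 (adjusted p = 0.0077). Of the 9 protease substrates and partners 2 were called higher, ATF6 by 0.88 (SE 0.23, adjusted p = 0.022) and SPRING1 by 0.47 (adjusted p = 0.046). Of the 16 ER export genes HERPUD1 rose by 3.02 (SE 0.78, adjusted p = 0.021) and TRAM2 fell by 0.36 (adjusted p = 0.034). None of the 9 substrates and partners was called when any control array other than 48 h replicate 3 was left out. Without control 48 h replicate 3, 3 of them were called higher and 1 lower, and of the 16 ER export genes 6 higher and 1 lower. In that setting 30.1% of tested genes were called in either direction, and 14.9% were called higher. HERPUD1 was not called without control 12 h replicate 2 or 3 or control 48 h replicate 1 or 2, and TRAM2 was not called without control 12 h replicate 1 or 3 or control 48 h replicate 1 or 2. The count of bZIP factors was 5 higher and 1 lower when any of the 3 control 12 h arrays or the control 48 h arrays of replicate 1 or 2 was left out, and 8 higher and 1 lower without control 48 h replicate 3. The count over all genes moved with it, being 2749 with all arrays and 1554, 1476 and 1284 without control 12 h replicates 1, 2 and 3. It was 1408, 1421 and 3210 without control 48 h replicates 1, 2 and 3.

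**Figure D5:**
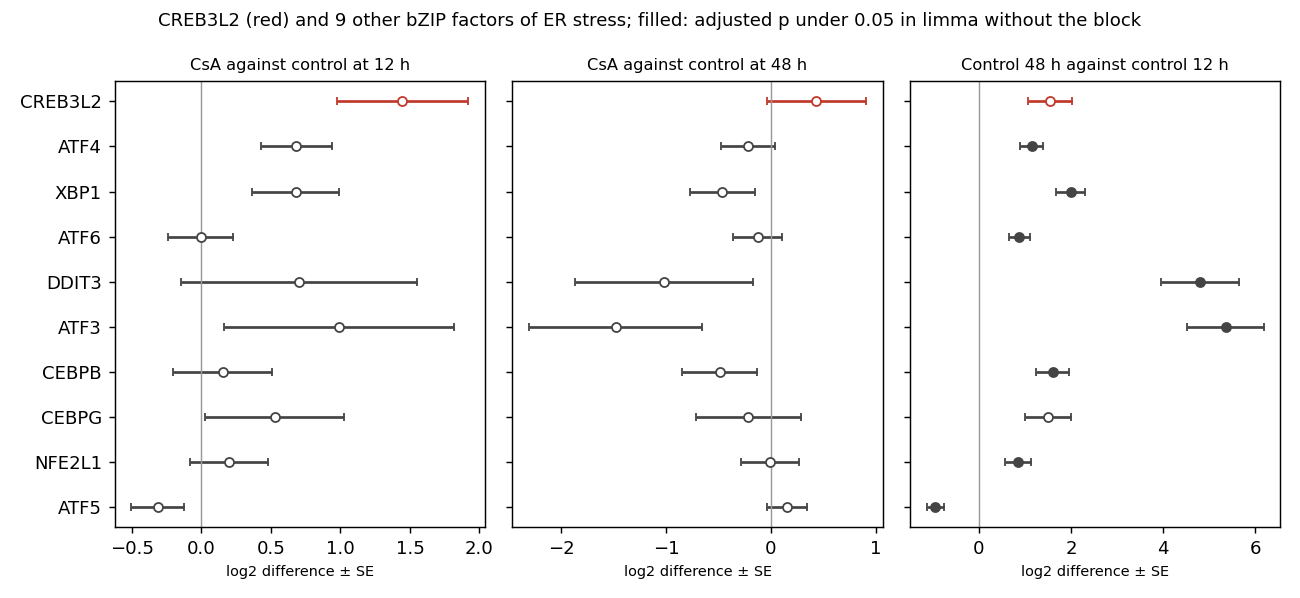
Log2 differences with their SE (horizontal axis, on its own scale in each panel) for CREB3L2 (red) and 9 other bZIP factors in CsA against control at 12 h, at 48 h, and in control at 48 h against control at 12 h. Filled points passed limma without the block at an adjusted p under 0.05, which CREB3L2 was tested for at 48 h only. CREB3L2 stands above 0 in each panel, but its choice used the 12 h controls, which enter the first and last panels. At 48 h 8 of the 9 others stand below 0, while without the CsA array of replicate 3, 7 stood above 0.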

How the data were processed

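Messenger RNA of HK-2 cells was measured on 12 Affymetrix arrays in 4 groups of 3. The table the authors deposited runs from 0.68 to 16.0, as log2 values do, and the submitters' processing notes name GCRMA. That method corrects background from probe sequence, makes array distributions alike and combines probes into probe sets, which can compress differences of dim ones. No version is given in these sources, and the values entered the fits unaltered.

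Of 54675 probe sets, 62 controls were left out, 41091 carried 1 symbol, 1801 several and 11721 none, per GEO's platform annotation, and 0 symbols needed an update by gene ID. A gene was tested if its probe set with the highest mean was above 4 on at least 3 arrays. Differences were tested, two-sided, with limma 3.58.1 in R 4.3.3 over 4 group means (8 residual degrees of freedom, 4 with the pairs as a block), eBayes moderation and Benjamini-Hochberg adjustment over 10650 genes at 0.05. The pairing comes from the data: same-numbered arrays of CsA and control correlated at 0.36, 0.52 and 0.59 at 12 h and 0.78, 0.54 and 0.74 at 48 h in their deviations from group means. The fits were tested on simulated data. The members and lists were chosen with earlier results of these data known. The named genes are the members, CREB3L3, 2 to 4 genes of each list with the largest differences at 12 h, and SREBF1 for its difference at 48 h. They include the genes of the protease partner, ER export and bZIP lists called over time in controls, and the 5 most like CREB3L2. ATF6, SEC23A, ARF4, COL1A1 and the convertases were also named, for their role, after their values were seen. Promoter windows are RefSeq's (GRCh38.p14). The number of arrays limits the precision.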

Additional observations from a re-analysis of the deposited data

How the results depend on the processing

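For CsA against control at 12 h, limma called 0 genes without the block, 3 with the replicate block, 1 and 5 in the 12 h arrays alone without and with it, and 1 with no filter. A fit of only those arrays, blocked and with eBayes' trend and robust options, was chosen after seeing the data and called 127 (102 higher, 25 lower). The pairs changed no call of the 5 other genes at 12 h or of the 6 at 48 h. In controls at 48 h against 12 h, leaving out 1 array gave 1284 to 3210 called genes, and no block was fitted there because the pairs lie within a time. The 1 time alone fits likewise give no value for that comparison or for the difference of effects. Of 396 recomputed differences of the 6 genes 31 changed sign, 1 passed where it had not, and 363 kept their direction and call. Averaging probe sets turned CREB3L2 at 48 h to -0.14, and centring arrays on their medians turned MBTPS2 at 12 h to -0.019 and the CREB3 difference of effects to 0.014. Without pair 3 at 48 h, in a blocked fit chosen after seeing the data, CREB3L1 turned to 0.11 and CREB3L4 to -0.27. Leaving out 1 array, values with sign changes at 12 h ran from -0.22 to 0.061 for CREB3, -0.11 to 0.10 for CREB3L4 and -0.037 to 0.047 for MBTPS2. At 48 h they ran from -0.49 to 0.28 for CREB3, -0.44 to 0.034 for CREB3L1, -0.15 to 0.86 for CREB3L2, -0.071 to 0.29 for MBTPS1 and -0.010 to 0.18 for MBTPS2. For the difference of effects they ran from -0.40 to 0.36 for CREB3, -0.091 to 0.38 for CREB3L1, -0.11 to 0.25 for MBTPS1 and -0.020 to 0.17 for MBTPS2, and for CREB3 in controls over time from -0.25 to 0.47. The causes were not tested.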
